A study of Sus scrofa with 4 samples.

Results

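Granule-gene cells were cells of regenerated pig bone that carried messenger RNA for the proteins of the specific granules. They were chosen from measured counts: a barcode with at least 200 genes and under 20% of its UMIs (unique molecular identifiers, which count captured RNA molecules) in the 13 mitochondrial genes was a member if it held at least 2 of LTF, MMP8, PGLYRP1, NPG1 and PR39, with a sum of at least 5 UMIs, and no UMI of CD3E, CD79B, CSF1R or EPX, which mark T cells, B cells, monocytes and macrophages, and eosinophils. Of 50935 kept barcodes, 1366 (2.68%) were members.

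Neutrophils make their granules one after another in the bone marrow: primary (azurophil) granules in promyelocytes, specific granules in myelocytes and metamyelocytes, and gelatinase granules in band cells. The transcripts of each granule's cargo are made mainly while that granule is being filled, so a cell with LTF or cathelicidin messenger RNA is an unfinished neutrophil, while blood neutrophils hold the proteins and have lost most of these transcripts. Pigs carry an unusually large family of cathelicidins, the precursors of antimicrobial peptides, of which PR39 (a proline-rich peptide), the protegrins (NPG genes) and the myeloid antimicrobial peptides (PMAP genes) are members.

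The tissue was regenerated bone of Bama mini-pigs aged 8 months, treated with a peptide named 1797 or with a control peptide. The labels give neither the peptide's sequence nor its dose, the bone defect or the time after treatment. There were 2 libraries of each group, made with a droplet 3′ method from tissue digested with collagenase and freed of red cells by lysis, and nothing in the labels says that the libraries came from separate animals, so each p-value is relative to a scatter between libraries that may be only technical. The series text gives a larger number of control samples, and the rest of them are not analysed here. Values for the 4 libraries are given below in the order 1797 library 1, 1797 library 2, control library 1 and control library 2.

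The libraries held 12534, 13145, 13401 and 11855 kept cells, and totals of 87844389 to 98758412 UMIs. The members of each library summed to 267682, 3186900, 94944 and 8377477 UMIs, so control library 1 and 1797 library 1 gave the least precise values. No member barcode occurred in more than 1 library. Doublets were not removed by a caller; 1, 10, 0 and 80 members held over 20000 UMIs. As a check of the neutrophil label, 5 genes that the rule did not use (CSF3R, CXCR2, S100A8, S100A9 and S100A12) summed to a median of 273.5, 355, 311 and 537 UMIs per member against 0, 1, 0 and 4 per T cell, taken as a kept cell with a CD3E UMI. A cut of at least 2 of these genes and 5 UMIs was passed by 1359 of the 1366 members, but also by 2.21%, 8.26%, 2.49% and 36.8% of T cells, so passing it does not by itself mark a neutrophil. In control library 2 it was passed by 74 of 75 members with under 0.1% of their UMIs in the rule genes, so the cut does not set those cells apart from the rest.

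Summed markers of several other cell types, 5 of them given first, were highest in the members of control library 2, while others were not. CPM below are the UMIs of a gene per 1000000 UMIs of the summed cells. T cell markers summed to 26.2, 35.5, 52.7 and 79 CPM, with 4, 8, 4 and 7 of 8 genes detected, and 13 members of control library 2 held at least 10 such UMIs. B cell markers summed to 11.2, 30.1, 52.7 and 418 CPM, dendritic cell markers to 120, 87.9, 137 and 848, monocyte and macrophage markers to 243, 194, 190 and 579, and stromal and osteoblast markers to 650, 249, 432 and 10217. Erythroid markers (5462, 985, 6635 and 366 CPM) and platelet markers (568, 529, 1043 and 338 CPM) were lowest in control library 2. Cytotoxic cell markers were highest in 1797 library 1 (153 CPM), where 3 of 10 genes were detected and NKG7 gave most of the sum. Osteoclast markers, which include MMP9, were highest in control library 1 (1949 CPM).

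The number of granule-gene cells differed far more between libraries of 1 group than between the groups. They numbered 48, 508, 23 and 787, which was 0.383%, 3.86%, 0.172% and 6.64% of kept cells (95% Wilson intervals 0.289 to 0.507%, 3.55 to 4.21%, 0.114 to 0.257% and 6.2 to 7.1%, which cover counting error only). Library 2 of each group was high and library 1 of each was low, so the groups overlapped. The mean was lower in the 1797 group by 1.28 percentage points (two-sided exact permutation test, p = 1; the smallest p that 2 libraries against 2 allow is 0.33). Against the 3715 other neutrophils, defined as cells that passed the same cut, held none of the 4 excluded genes and had at most 1 rule-gene UMI, members made up 7.87%, 26.6%, 6.2% and 35.9% of neutrophil cells. That mean difference was -3.82 points (exact permutation p = 1). The T cells above show that this cut can pass other cells, to a degree that differed by library, so the denominator may hold some. The plot of shares shows the same split by library.

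**Figure D1:**
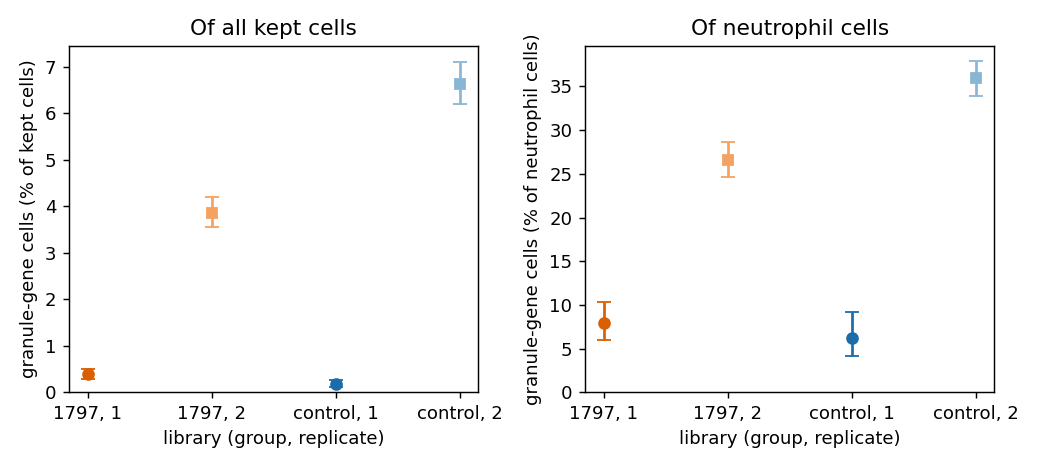
Granule-gene cells as a percent of all kept cells (left) and of neutrophil cells (right), by library, with 95% Wilson intervals as bars. Control library 2 (6.64% of kept cells) and 1797 library 2 (3.86%) sat far above library 1 of both groups.

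Rule-gene RNA outside the members set a background that also differed by library. Whether it came from free RNA in the droplets or from doublets was not tested. T cells should lack these genes, yet 1.74%, 26.3%, 3.13% and 69.3% of them held at least 1 rule-gene UMI, at median depths of 6806, 7645, 7494 and 8128 UMIs against 4086, 5153.5, 4025 and 6770 in members. Apart from CD3E itself, 5 of 3444, 72 of 3437, 10 of 5743 and 282 of 3518 T cells would have met the granule-gene threshold (0.145%, 2.09%, 0.174% and 8.02%). In control library 2 that share was above the share of members among kept cells, and in control library 1 it was about the same. Of the members, 357 had under 0.5% of their UMIs in the rule genes. Of the T cells that met the threshold, 4, 35, 0 and 198 also had under 0.5%, and 1, 37, 10 and 84 had 0.5% or more. Members under 0.5% are described apart below. Some results are also given without them, while the others are given with all members only.

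The rule's own genes are described without a test, because they chose the cells. LTF encodes lactoferrin, the iron-binding protein of specific granules (chromosome 13, 29413886 to 29445751 on Sscrofa11.1), and stood at 4711, 5482, 7836 and 4877 CPM in members. It was found in 81.2% of the members of 1797 library 1 and in 94.9%, 95.7% and 96.2% of those of the other libraries. MMP8, neutrophil collagenase (chromosome 9, 33384034 to 33397637), reached 702, 534, 811 and 569 CPM and was detected in 50.6% to 60.9% of cells. PR39 (chromosome 13, 30937930 to 30957127) reached 10725, 13212, 5645 and 10307 CPM, but sat in fewer cells, 41.7%, 38.8%, 26.1% and 73.7%. NPG1 gave only 11 UMIs, in 11 cells over the 4 libraries, so it decided almost no membership. The cells just inside the rule (5 or 6 rule UMIs) held 27244 and 21902 CPM of S100A9 in the 1797 libraries (4 and 27 cells) but 1057 in control library 2 (74 cells), with 4741 CPM of the bone collagen COL1A1 there, and control library 1 had no such cell. Just outside it (3 or 4 rule UMIs of at least 2 genes), S100A9 stood at 16302, 2075, 14896 and 850 CPM in 5, 32, 5 and 177 cells.

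PGLYRP1, which encodes a peptidoglycan-recognition protein that binds bacterial cell walls (chromosome 6, 52318544 to 52322504), was nearly missing from 1 library. It stood at 986, 7638, 3665 and 55.7 CPM. In control library 2 its 467 UMIs were spread over 31.5% of 787 cells, with a median of 1 UMI per positive cell, against 24340 UMIs in 92.1% of 508 cells in 1797 library 2. It was low relative to LTF outside the members as well: per 100 UMIs of LTF, T cells held 14.2, 136, 111 and 1.36 UMIs of PGLYRP1. Kept cells below the granule-gene threshold held 1.92, 80.9, 92.2 and 0.458, with control library 2 again lowest and 1797 library 1 next.

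PR39 lies in a cluster of cathelicidin genes between positions 30932411 and 31013164 of chromosome 13, with NPG4, PMAP-23, LOC110256441, NPG1, PMAP-36 and LOC110255221. The rule used only PR39 and NPG1 of these. NPG4, a protegrin, stood at 4901, 5570, 864 and 4483 CPM in members against 1.25, 12.9, 2.23 and 49.9 in other neutrophils. PMAP-23 stood at 4718, 3381, 1906 and 2345 CPM against at most 32.5, and PMAP-36 at 2712, 1506, 632 and 918 CPM against at most 11.5. LOC110255221 reached 1177, 1417, 137 and 989 CPM, while LOC110256441 had 0, 6, 0 and 18 UMIs. The next gene along the chromosome, NME6, gave 11.2, 6.59, 0 and 8.71 CPM. Protegrin copies are nearly identical in sequence, so reads of NPG1, NPG4 and their relatives could be assigned to the wrong copy or dropped, and the split between them is uncertain.

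The members were next compared with the other neutrophils of the same library for all remaining genes, which asks what else goes with granule transcripts. Counts were summed per library and class and tested with edgeR's quasi-likelihood test with the library as a term. The 5 rule genes, the 4 genes kept at 0 and the 5 genes of the neutrophil check were left out. Members had to hold at least 5 rule UMIs, and they were deeper cells (medians of 4086 to 6770 UMIs against 1918 to 2120.5). The part of the cut in this difference of depth was not tested. The selection makes the classes differ by construction, so an adjusted p here says only that a gene differed alike in the 4 libraries. Of 8930 genes tested, 1024 were higher in members (11.5% of tested genes) and 1363 lower (15.3%) at an adjusted p under 0.05, and the median log2 fold change of all tested genes was -0.11.

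The other granule genes separated the classes most. Of 29 specific and gelatinase granule genes listed, 18 could be tested, 12 were higher and 3 lower, with a median log2 fold change of 4.03. The largest were NPG4 (log2 fold change 8.04 ± 0.74 SE, adjusted p = 0.000308), PMAP-36 (7.96 ± 0.76) and PMAP-23 (7.42 ± 0.48). CD177, a surface protein of specific granules, stood at 852, 659, 168 and 553 CPM in members and at most 9.79 in other neutrophils. LCN2, the siderophore-binding protein of specific granules, stood at 2443, 1693, 2781 and 1737 CPM against 4.37, 19, 12.3 and 42.3 (log2 fold change 6.55 ± 0.59, adjusted p = 0.000278). The vitamin B12-binding TCN1 was even across libraries, at 867, 762, 769 and 747 CPM. CRISP3, HP (haptoglobin) and RETN (resistin) were higher by 6.79, 5.55 and 4.84 on the log2 scale. MMP9, the gelatinase, and ANXA1 were higher by 3.09 and 3.23. The members that were lower were ARG1, ADAM8 and CHI3L1. ARG1, an arginine-degrading enzyme, stood at 22.4, 78.1, 42.1 and 101 CPM in members and at 1684, 1071, 747 and 314 in other neutrophils.

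**Figure D2:**
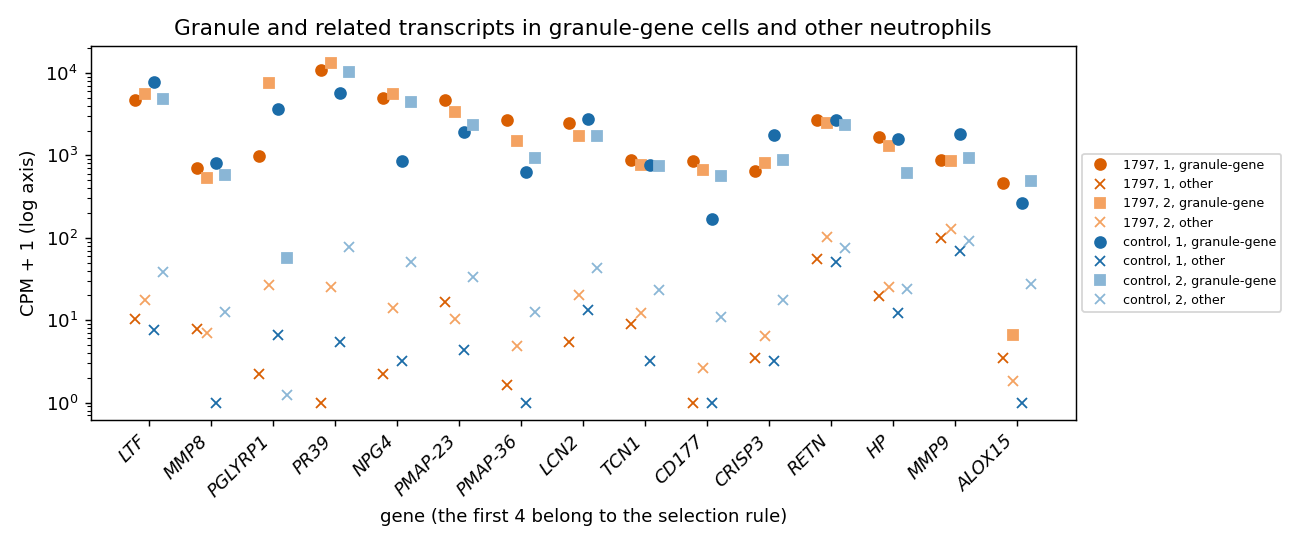
CPM + 1 on a log axis for 15 genes in granule-gene cells (filled) and other neutrophils (crosses), 1 colour per library. Members lay above other neutrophils of the same library for each gene shown. PGLYRP1 in control library 2 (55.7 CPM) and ALOX15 in 1797 library 2 (5.65 CPM) stood far below the other libraries.

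Primary granule genes were not called more often than all tested genes, of which 11.5% were higher and 15.3% lower. Of 9 tested, only SERPINB1, an inhibitor of neutrophil proteases, was higher (2.52 ± 0.25 log2) and only SRGN, the granule proteoglycan serglycin, was lower (-2.73 ± 0.19). AZU1 (azurocidin) stood at 956, 280, 52.7 and 780 CPM in members against 49.9, 1028, 66.9 and 368 in other neutrophils, higher in 2 libraries and lower in 2. ELANE, neutrophil elastase, gave 82.2, 1.26, 0 and 167 CPM against 0.624, 148, 19 and 80.5, and MPO stayed at or under 58.1 CPM in both classes. None of these 3 passed the test (adjusted p = 0.786, 0.969 and 0.88 in edgeR). The list depended on the cells used: without control library 2, 3 of 8 genes were lower (SRGN, CTSC and LYZ; median -1.23), and with members of at least 0.5% rule-gene UMIs 4 of 8 were lower (SRGN, CTSC, ELANE at -3.71 and PRTN3 at -2.72; median -1.55), with SERPINB1 higher each time. In the main comparison the median was -0.22. The medians of all tested genes were -0.11 in the main comparison, -0.002 without control library 2 and -0.17 with the 0.5% cut. Calls over all genes also rose with the 0.5% cut, as given below, so that rise is not particular to this list. Other neutrophils were chosen by few rule-gene UMIs and not by stage. In 1797 library 2 they held more PRTN3 (439 against 31.1 CPM) and MPO (58.1 against 4.39 CPM) than members. In control library 2 both were higher in members (PRTN3 291 against 151 CPM, MPO 46.8 against 12.9). Whether the class of other neutrophils mixes earlier precursors with mature cells was not tested.

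Among 14 transcription factors of granulocyte formation, 6 were higher and 4 lower. CEBPE, the factor required for specific granules, stood at 123, 93.2, 94.8 and 89.5 CPM against 1.25, 4.68, 8.92 and 6.69 (log2 fold change 3.94 ± 0.5, adjusted p = 0.00115). MYB, a progenitor factor, was higher by 3.85, KLF5 by 3.12 and GFI1, a repressor needed for granulopoiesis, by 2.79, with CEBPD and IKZF1 also higher. CEBPB, which drives emergency granulopoiesis, was lower by 3.25, along with FOSL2, JUNB and RUNX1.

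Cell cycle genes were higher in members. Of 25 cell cycle genes tested, 18 were higher and none lower, with a median of 2.26 on the log2 scale. TOP2A, a topoisomerase of dividing cells, stood at 276, 275, 84.3 and 150 CPM against 2.49, 3.85, 4.46 and 13.8, and MKI67 at 134, 111, 63.2 and 79.9 against at most 9.31. E2F8, a cell cycle transcription factor, was higher by 5.1 ± 0.7 (adjusted p from edgeR 0.00172).

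Genes of the mature and activated neutrophil were lower. Of 20 maturation and receptor genes, 15 were lower and none higher (median -1.86). Of 23 inflammatory cytokine and NF-kB genes, 21 were lower and none higher (median -2.61), and TNF and TNFAIP6 did not pass. Markers of some other cell types were lower too: 5 of 11 monocyte and macrophage genes (median -1.72) and 3 of 5 T cell genes (-1.81). So were 5 of 7 cytotoxic cell genes (-2.04, with 1 higher), 2 of 5 dendritic cell genes (-1.24) and 2 of 4 B cell genes. Other lists had few or no calls. Of 11 stromal and osteoblast genes 1 was higher and 1 lower, and none of 5 endothelial or 4 chondrocyte genes was called. Of 6 erythroid genes 1 was lower, as was 1 of 5 plasma cell genes. Platelet and osteoclast genes gave 1 call each way. The part of other cell types in the lower cytokine genes was not tested. Monocyte and macrophage markers summed to 715, 418, 550 and 463 CPM in other neutrophils. CXCL8, the neutrophil-attracting chemokine, stood at 598, 913, 874 and 368 CPM in members and at 7509, 14558, 9577 and 7626 in other neutrophils (log2 fold change -4.25 ± 0.2, adjusted p = 5.93e-05). IL1B was lower by 4.28, CXCR4 (the receptor that holds neutrophils in marrow and returns aged ones) by 3.46, TLR2 by 2.64 and the complement receptor C5AR1 by 1.86. GP6, VNN1 and THBD (thrombomodulin) were among the 12 genes that were lowest by fold, with THBD at 67.2, 115, 63.2 and 84.6 CPM against 1410, 1517, 1230 and 1413. The marrow-egress receptor gene CXCR2 and the growth factor receptor gene CSF3R helped to choose the other neutrophils, though not the members, and so carry no test. They gave 138 to 263 and 137 to 216 CPM in members against 354 to 639 and 772 to 1119 in other neutrophils. The alarmin S100A9, which belongs to the same cut and also carries no test, ran the other way, at 28291, 24191, 30534 and 19380 CPM against 1160, 1411, 460 and 1009.

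Interferon response genes were lower as a group. Of 22 tested, 19 were lower and none higher, with a median of -3.57. IFIT1 stood at 11.2, 21.3, 10.5 and 14.8 CPM in members against 125, 363, 490 and 524 (log2 fold change -4.92 ± 0.33, adjusted p = 0.000133), and ISG15 was lower by 4.11. In other neutrophils 1797 library 1 had the lowest IFIT1 of the 4, and members stayed under 22 CPM in each. USP18, STAT2 and GBP2 did not pass.

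Smaller groups were mixed. Of 8 lipid mediator genes, 4 were higher and 1 lower. LTA4H, which makes leukotriene B4, stood at 534, 301, 337 and 372 CPM against at most 31.5 (3.9 ± 0.28), and ALOX5 was higher by 1.74, while its partner ALOX5AP was not called (0.24). Of 16 actin and motility genes, 7 were higher and none lower, among them ACTB (1.32) and CORO1A (1.81). Of 24 glycolysis and hypoxia genes, 7 were higher, with GPI at 2.34, and 6 lower, with PFKFB3 at -2.97. Of 24 immediate early and stress genes, 15 were lower, and the 3 that were higher, HSPH1, HSP90AA1 and HSPB1, encode chaperones. Of 20 protein synthesis and secretory genes only CANX and DNAJB9 were higher and only CALR lower, of 5 NADPH oxidase genes only RAC2 was higher and only NCF4 lower, and of 6 other S100 and alarmin genes 2 were higher and 3 lower.

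**Figure D3:**
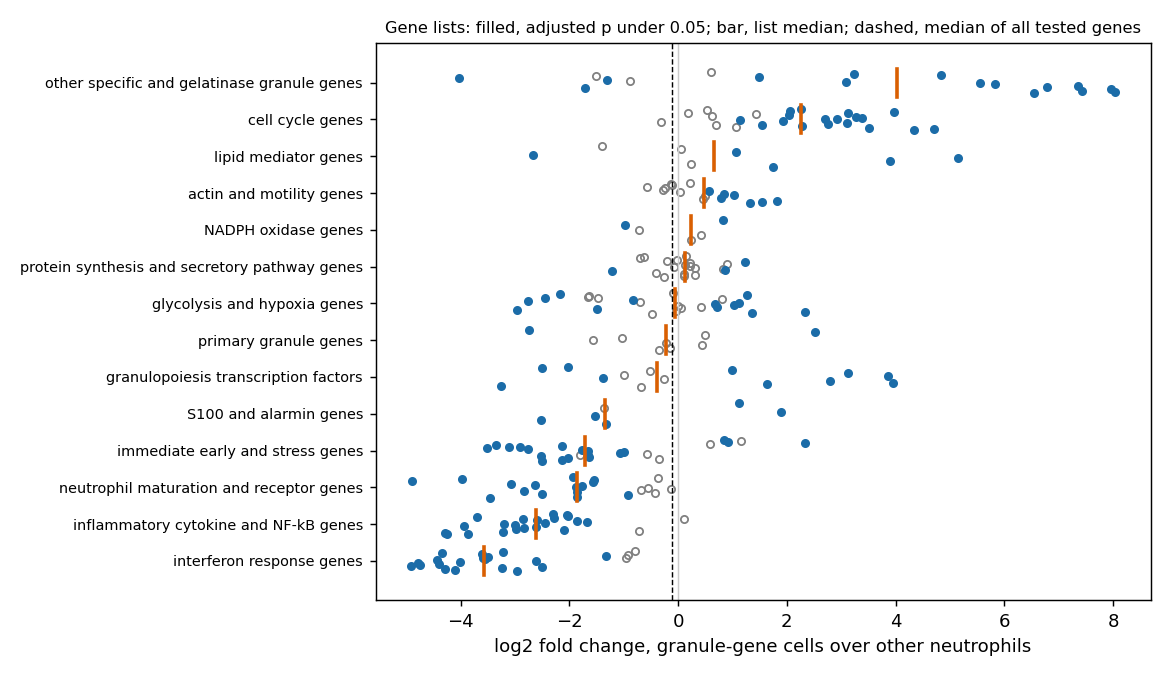
Log2 fold change of each tested gene, granule-gene cells over other neutrophils, by gene list; filled points had an adjusted p under 0.05 in edgeR, bars are list medians and the dashed line is the median of all 8930 genes (-0.11). Specific granule and cell cycle genes lay mostly to the right (medians 4.03 and 2.26), interferon and inflammatory genes to the left (-3.57 and -2.61).

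Control library 2 held by far the most stromal and osteoblast RNA in its members, so the leading counts were repeated without it. Specific granule genes then gave 12 higher of 17, cell cycle genes 17 of 23, inflammatory genes 21 lower of 23 and interferon genes 19 lower of 21. Leaving out 1797 library 2 lowered the number of genes called from 2387 to 1267, while keeping only members with at least 0.5% of UMIs in the rule genes raised it to 4277 and requiring a sum of 10 rule UMIs raised it to 3785.

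The members were not uniform. They were split, after their values had been seen and so without a test, into 4 subsets: cells with rule genes under 0.5% of UMIs (low share), and of the rest those with PR39 at 0.5% or more (PR39-rich), those with MMP8 at 0.03% or more (MMP8-carrying), and those with neither (LTF only). The last name is only a label: like all members, these cells held at least 2 rule genes, and LTF was not required. PR39-rich cells made up 20.8%, 23.2%, 13% and 24.1% of members, MMP8-carrying cells 33.3%, 31.5%, 34.8% and 30.2%, LTF-only cells 18.8%, 19.5%, 26.1% and 19.3%, and low-share cells 27.1%, 25.8%, 26.1% and 26.3%. The number of members varied 34.2-fold between libraries, while low-share cells were 25.8% to 27.1% of them in each. Control library 1 had only 3 PR39-rich cells.

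PR39-rich cells held the cathelicidins and the cell cycle. PR39 stood at 23767, 37657, 51517 and 41426 CPM in them and at most 160 CPM in MMP8-carrying cells. The rule did not use NPG4 for these subsets, and it followed PR39, at 10816, 15803, 7880 and 17899 CPM in PR39-rich cells against 75.5, 15.2, 0 and 75.4 in MMP8-carrying cells. PMAP-23 and LOC110255221 behaved alike, at 9323 CPM or more and 1281 CPM or more in PR39-rich cells against at most 36 and 7.61. The 29 cell cycle genes in the files summed to 8716, 8298, 11328 and 7792 CPM in PR39-rich cells against 2749, 2744, 1884 and 2506 in MMP8-carrying cells. At least 2 UMIs of 6 mitosis genes were found in 10 of 10, 74 of 118, 1 of 3 and 108 of 190 PR39-rich cells and in 0, 0, 0 and 2 MMP8-carrying cells; the PR39-rich cells of all libraries but control library 1 were also deeper, with medians of 9878, 9295, 1108 and 11058 UMIs against 4043, 4678.5, 4980.5 and 6064.5. CD177 (1719, 1601, 887 and 1846 CPM), CEBPE and GFI1 were likewise highest in PR39-rich cells of each library, and MMP9 was at most 38.8 CPM there.

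MMP8-carrying cells held the later genes. MMP9 stood at 2794, 1823, 3408 and 3752 CPM in them, and PADI4, which citrullinates histones in neutrophil extracellular traps, at 317, 489, 942 and 783 CPM against at most 12.3 in PR39-rich cells. CRISP3 ran from 1964 to 3297 CPM against at most 77.1. C5AR1 (740, 1052, 665 and 999 CPM) and CXCR2 (302, 236, 249 and 318 CPM) were above the PR39-rich cells in each library. In LTF-only cells TOP2A stood at 91.8, 355, 0 and 124 CPM and MMP9 at 23, 202, 479 and 402 CPM. These cells had the highest LCN2 in each library (4821, 2658, 4606 and 4395 CPM), and the highest LTF in 3 of 4 libraries, with 7875 CPM against 8021 in the MMP8-carrying cells of 1797 library 1. S100A9 was high throughout, from 19255 to 24898 CPM in PR39-rich cells and from 31987 to 38599 in MMP8-carrying cells.

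**Figure D4:**
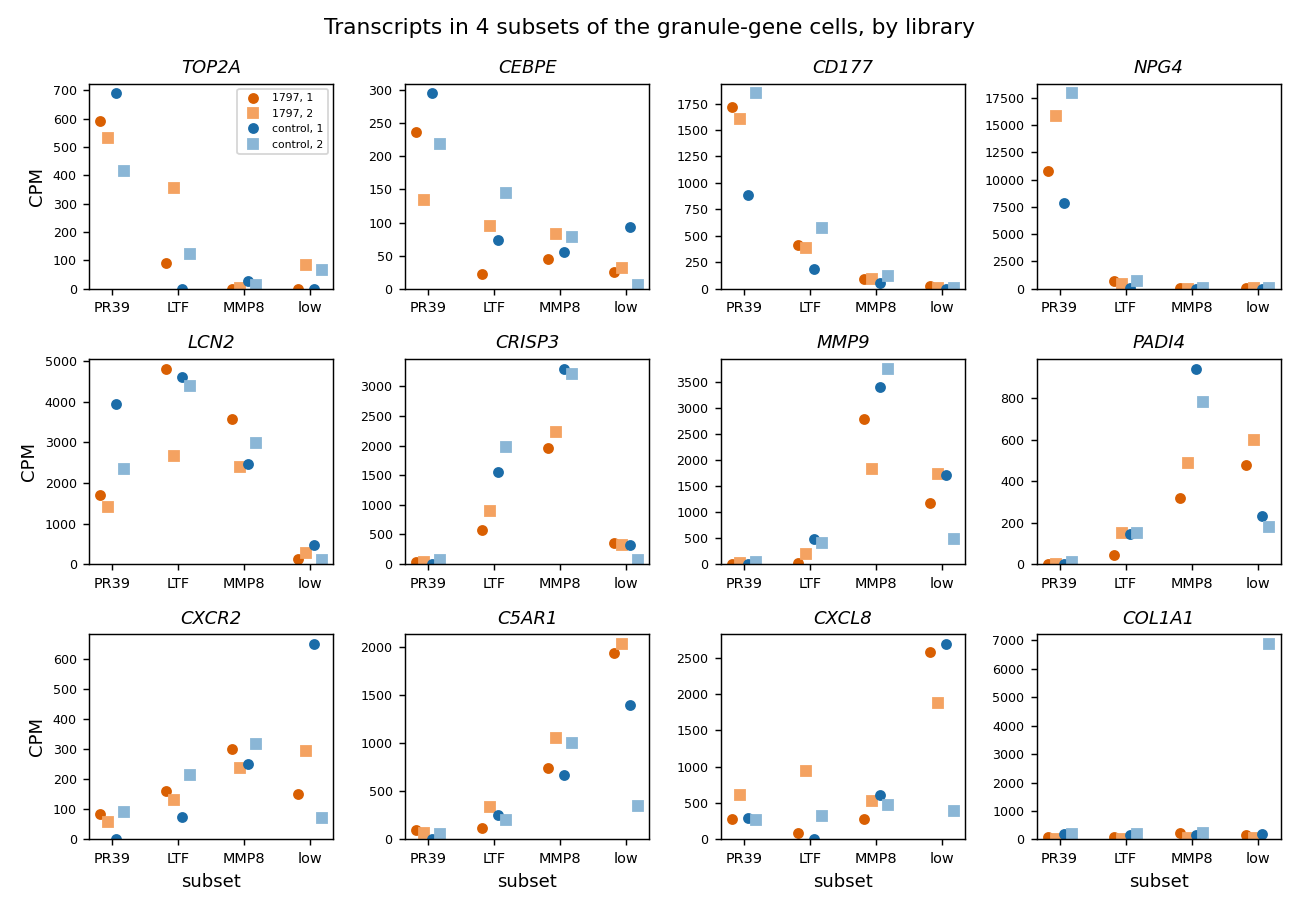
CPM of 12 genes in the 4 subsets of granule-gene cells (PR39-rich, LTF only, MMP8-carrying, low share), 1 point per library, each axis starting at 0. TOP2A, CD177 and NPG4 were highest in PR39-rich cells, MMP9 and CRISP3 in MMP8-carrying cells, and COL1A1 reached 6864 CPM only in the low-share cells of control library 2.

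Low-share cells differed by library. In the first 3 libraries they kept S100A9 (26042, 20202 and 25363 CPM) and held more CXCL8 (2584, 1883 and 2689 CPM) than any other subset of their library. C5AR1 was also high in them, at 1932, 2025 and 1391 CPM. In control library 2 they held 3916 CPM of S100A9, 396 CPM of CXCL8 and 6864 CPM of COL1A1, against 181 to 210 CPM of COL1A1 in the other subsets of that library. The 11 stromal and osteoblast markers summed to 21971 CPM in them and to at most 1029 CPM in each other subset of any library, and 74 of these 207 cells held at least 10 UMIs of the list. Rule genes made up under 0.1% of UMIs in 75 of the low-share cells of control library 2 and in 3, 0 and 0 of those of 1797 library 2 and of library 1 of each group. In the plot of stromal RNA by cell, the 75 of control library 2 lie to the left by this definition, and 27 of them held over 1% stromal RNA. Hemoglobin RNA also varied: HBB reached 14401 CPM in the low-share and 12431 CPM in the MMP8-carrying cells of 1797 library 1, and 22000 CPM in the LTF-only cells of control library 1, which were 6 cells. The part of this foreign RNA in the differences between libraries was not tested for single cells.

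**Figure D5:**
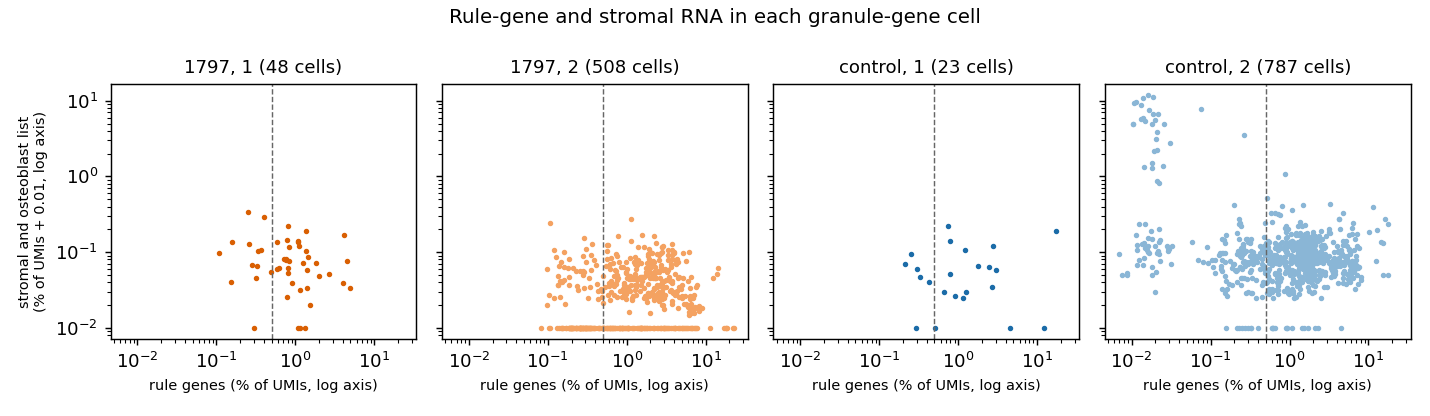
Each point is a granule-gene cell, placed by the percent of its UMIs in the 5 rule genes and in 11 stromal and osteoblast genes (+ 0.01), both on log axes; the dashed line marks 0.5%. In control library 2, 75 cells lay under 0.1% rule-gene RNA, 27 of them with over 1% stromal RNA.

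AZU1, made in promyelocytes, reached 10 UMIs in few members. This level was found in 19 PR39-rich and 5 low-share cells of control library 2 (787 members), in 3 and 1 of 1797 library 2 (508 members) and in 1 and 3 of 1797 library 1 (48 members). LTF-only cells gave 2 more in 1797 library 1 and 1 each in library 2 of both groups, MMP8-carrying cells gave none, and control library 1 had none at all. The low-share cells had the highest AZU1 in 1797 library 1 and control library 2 (3437 and 1407 CPM), and ELANE with it (376 and 361 CPM).

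The 1797 and control libraries were then compared within the members. No gene passed an adjusted p of 0.05 in edgeR among 8238 tested (0% called), while 658 (7.99%) had an unadjusted p under 0.05, 95 of them higher and 563 lower in the 1797 group. DESeq2 called 1 gene, with 334 at an unadjusted p under 0.05. In simulated data of the same size, 1.33% of 2-fold and 17.7% of 4-fold changes were called, so most differences of these sizes could not be seen with 2 libraries a group. Counts from bulk sums also cannot separate fewer cells of a subset from less RNA per cell.

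The specific granule genes stood near the median of all genes (-0.03 on the log2 scale, 1797 over control): their median was 0.31 over 18 genes, none called, and 2 with an unadjusted p under 0.05. Those 2 were PMAP-36 (1.51 ± 0.45, adjusted p from edgeR 0.255) and PMAP-23 (1.01 ± 0.44, adjusted p from edgeR 0.6), both with the 1797 libraries above the control libraries. LCN2 differed by -0.04 ± 0.45 and TCN1 by 0.19 ± 0.36, both within 1 SE of 0. The cell cycle genes had a median of 0.64 over 29 genes, 3 with an unadjusted p under 0.05; TOP2A stood at 276 and 275 CPM in the 1797 libraries and at 84.3 and 150 in the control libraries (1.22 ± 0.4, adjusted p from edgeR 0.317). GFI1 (153 and 100 against 10.5 and 41.9 CPM) and KLF5 (956 and 446 against 126 and 332 CPM) had higher values in both 1797 libraries and did not pass (adjusted p from edgeR 0.255 and 0.317). Such a split is common: 2608 of all 8238 tested genes (31.7%) had both libraries of 1 group above both of the other. In control library 1 a count of 0 allows up to 31.6 CPM, and its GFI1 value lay under that. Interferon genes had a median of 0.05 over 14 genes and maturation genes of -0.15 over 19. The largest shift was in the stromal and osteoblast markers, with a median of -4.43 over 8 genes, 6 with an unadjusted p under 0.05 and none called, alongside the stromal RNA of control library 2.

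One gene passed when members with under 0.5% rule-gene UMIs were left out. HS3ST3A1, a heparan sulfate sulfotransferase (chromosome 12, 57629279 to 57730700), had 45 UMIs in 35 such cells of 1797 library 1 and 113 in 377 cells of 1797 library 2. In the control libraries it had 0 UMIs in 17 cells and 1 in 580. These were 198, 44.2, 0 and 0.215 CPM (adjusted p from edgeR 0.000825 among 7258 genes; 0.187 with all members). A count of 0 in control library 1 allows up to 40.9 CPM. It was chosen after its values were seen. In other neutrophils it had 65, 35, 0 and 0 UMIs, and in T cells 74, 107, 39 and 26. DESeq2 called it with all members (adjusted p = 2.63e-05), and over all alternatives run its adjusted p ran from 6.37e-18 to 0.441.

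ALOX15, a lipoxygenase of lipid mediator synthesis, was the reverse of PGLYRP1. Of 2323 genes at 100 CPM or more in some library among members with at least 0.5% rule-gene UMIs, 4 differed over 16-fold between 1797 library 2 and control library 2: PGLYRP1, ALOX15, HS3ST3A1 and LYZ. ALOX15 stood at 500, 7.05, 259 and 792 CPM in these cells. It was detected in 80%, 0.531%, 58.8% and 80.2% of them, and its 18 UMIs in 1797 library 2 came from 2 cells. It was high in 3 libraries of both groups and nearly missing from 1. Its fold change of members over other neutrophils (5.15 ± 0.82, adjusted p from edgeR 0.00331) came with 5.65 against 0.826 CPM in 1797 library 2, so the direction held in all 4 libraries while the level in that library was low. The eosinophil list shares ALOX15, and its other genes, CCR3 and IL5RA, stood at 0.628 CPM or less in each library.

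Whether the peptide difference was the same in members as in other neutrophils was tested with an interaction term. Of 10616 genes, 408 were called (3.84%), 11 higher (0.104%) and 397 lower (3.74%) in members. Among the granule lists, 5 of 19 specific and gelatinase genes were called: NPG4 (2.77 ± 0.52 on the log2 scale, adjusted p from edgeR 2.46e-05), PMAP-36 (2.64 ± 0.64) and CD177 (3.29 ± 0.81) were higher, and ARG1 and PTX3 lower. The cathelicidin-cluster gene LOC110255221 (3.51 ± 0.72) and TOP2A (2.84 ± 0.79) were also higher. The levels of these 5 higher genes in other neutrophils were at most 49.9 CPM, and each was highest in control library 2. Of 9 primary granule genes MPO and LYZ were lower, of 24 inflammatory genes TNFAIP3, PTGS2 and CCL20 were lower, and of 11 stromal and osteoblast genes 7 were lower. Of these 408, 389 had their highest member level in control library 2. Without that library 11 genes were called, 4 of them among the 408, and none of the granule genes just named. With only members of at least 0.5% rule-gene UMIs 6 were called, 3 of them among the 408. Of those 6, COL1A1, COL1A2 and IBSP were lower and COL2A1, CXCL12 and MECOM higher, and all but MECOM are known as genes of bone, cartilage or marrow stroma. COL1A1 stood at 131, 28.9, 158 and 3170 CPM in members and at 927, 1673, 232 and 991 in other neutrophils.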

How the data were processed

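The authors deposited filtered matrices of raw UMI counts per gene and barcode (20648 genes), made with Cell Ranger 5.0.0 on Sscrofa11.1 per the submitters' processing notes; the file headers name version 7.0.1. Counts were summed per library and class and divided by their total (CPM). Genes were called with edgeR 4.0.16 (TMM, filterByExpr, quasi-likelihood test, Benjamini-Hochberg over all tested genes), tested on simulated data with 200 changed genes in 3 runs; DESeq2 1.42.0 was an alternative. Shares used Wilson intervals and exact permutation tests (scipy 1.17.1). The members and lists were chosen with earlier results of these data known. Named genes were up to 12 in each direction per comparison with adjusted p under 0.05, a log2 change of at least 1, 20 CPM and the same sign in the 4 libraries, plus up to 8 per list by level and a fixed set; the others are said to be chosen later. CPM of different genes depend on 3′ capture, not on length alone. Libraries of 1 group differed beyond sampling noise (chi-square per degree of freedom 5.66 and 5.64), so none was counted as a duplicate. Coordinates are from RefSeq, counted from 1.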

Additional observations from a re-analysis of the deposited data

Results flagged for a closer look

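The interaction fit found that the difference between 1797 and control libraries differed between granule-gene cells and other neutrophils for 408 genes (edgeR, adjusted p under 0.05). Most of these, 389, were highest in the members of control library 2, where stromal and osteoblast markers summed to 10217 CPM against 248 to 650 CPM in the members of the other libraries. Without that library the count was 11.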

How the results depend on the processing

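Members against other neutrophils gave 2387 calls, and 1267 to 2963 with a library left out (1267 without 1797 library 2); 3785 with a rule-gene sum of at least 10 and 4277 with rule genes at 0.5% of UMIs or more, which was chosen after seeing the data. The library term (replicate block) mattered little there: 2275 genes were called without it. For 1797 against control in members, 0 calls became 1564 with no filter on low counts (1495 lower), 1 with DESeq2, 193 with the replicate block and 1 at 0.5% rule-gene UMIs. Leaving out a library gave 0 to 1751 calls, 1751 without control library 1, 204 without 1797 library 1 and 0 without either library 2; at 0.5% rule-gene UMIs it gave 18 and 13 without 1797 library 1 and 2, and 2 and 28 without control library 1 and 2. The replicate numbers share only a number (correlation of deviations -0.018), so no pairing is read from them. The interaction gave 408 calls, 50 with DESeq2, 192 with a sum of 10 and 6 at 0.5%, and 11 to 386 with a library left out (269 without 1797 library 1, 113 without 1797 library 2 and 11 without control library 2), or 9 without control library 2 at 0.5%. DESeq2 size factors moved the median of all genes in the interaction from 0.02 to -0.13. The share of kept cells (-1.28 points) ranged from -4.51 to 1.95 with a library left out and was 0.311 when cells with any UMI of other types were dropped; that of neutrophil cells (-3.82) ranged from -18.7 to 11 and was 2.84. That last rule left no member in control library 1, so its gene fits were not run. Thinned to 1000 UMIs, members were 0.311%, 3.67%, 0.21% and 5.07% of cells and 10.6%, 35.9%, 19.7% and 42.6% of neutrophil cells (7.87%, 26.6%, 6.2% and 35.9% unthinned; exact permutation p = 0.667 for the thinned difference of -7.91 points), with 2248, 1353, 1478 and 1248 cells left out. Of 594 alternative values for 46 gene results, 17 reversed, none of them called: MPO was -1.23 to 1.46 with a library left out and 0.020 with at least 500 genes; ELANE -2.73 to 1.55, 0.17 without control library 1, 0.074 unfiltered and 0.23 at 500 genes; AZU1 -0.75 to 1.47, -0.27 at a sum of 10 and -0.41 at 0.5%; PRTN3 -1.96 to 1.14, 0.15 without control library 1, 0.0092 unfiltered and 0.24 at 500 genes; JCHAIN -0.14 to 0.022, 0.38 without the library term and 0.18 against all other neutrophil-gate cells. The cause of these changes was not tested. With 94944 UMIs in its members, control library 1 limits the precision.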

Other observations

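Some further transcripts moved with the class. NKG7, known from cytotoxic lymphocytes, stood at 138, 55.9, 42.1 and 54.1 CPM in members against 8.11, 11.8, 15.6 and 12.7 CPM in other neutrophils (log2 fold change 2.13 ± 0.46, adjusted p from edgeR 0.0129), while 5 of the 7 tested genes of the cytotoxic list were lower. PPBP, known from platelets, stood at 131, 90.4, 63.2 and 52 CPM against at most 12.7 (2.5 ± 0.34, adjusted p from edgeR 0.00162), while PLEK of the same list was lower. SVIP, a small protein of endoplasmic reticulum quality control, stood at 149, 117, 105 and 102 CPM against at most 2.15.

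The uncharacterised gene LOC110256043 (chromosome 12, 39364414 to 39433654), chosen after its values were seen, stood at 30.7, 1702, 1717 and 4008 CPM in members with at least 0.5% rule-gene UMIs. It was detected in 14.3%, 96.3%, 82.4% and 97.9% of them, so 1797 library 1 was the low one, a different library from those low in PGLYRP1 and ALOX15.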
